A study of Homo sapiens with 4 samples.

Results

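The regions described here are the stretches of open chromatin in the distal parts of chromosome arms 8q, 10q and 17q of HCT116, a human colorectal cancer cell line, which are duplicated in the known karyotype of the line. Peaks of 4 ATAC-seq libraries that shared at least 1 bp were merged into regions on hg19, and a region was a member when its midpoint lay at or beyond position 66000000 of chromosome 8, 97000000 of chromosome 10 or 40900000 of chromosome 17. This gave 6042 of 78788 regions (7.67%), with 2184 in 8q, 1517 in 10q and 2341 in 17q. The rest of the same chromosomes, which served for comparison, held 1437, 2448 and 1737 regions. ATAC-seq uses a transposase to cut accessible DNA and insert sequencing adapters, so that open chromatin gives stacks of reads. The cells were wild type in every library. Tunicamycin at 0.5 µg/ml for 6 h was given to 2 cultures, and the solvent, 0.1% DMSO, was given for 6 h to 2 control cultures, with 50000 cells taken for each library. The series calls the 2 libraries of a group biological replicates without saying how they were separated, so the tests measure the spread between these libraries. All of them come from the same aneuploid line, and no line without the duplications was part of the comparison.

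As background, HCT116 is near-diploid, with a single X and no Y. Its additional 8q material is attached to chromosome 16, its additional 17q material to chromosome 18, and distal 10q carries a duplication. A segment present in more copies offers the transposase more template, so a stack of reads there can be higher without any difference in how open each copy is. More copies and more accessible chromatin per copy cannot be told apart in these lists. The segments carry genes of interest for this line and this treatment. MYC on 8q encodes a transcription factor that drives proliferation, and TCF7L2 on 10q encodes a transcription factor of the Wnt pathway. ERN1 on 17q encodes IRE1, the sensor that splices the XBP1 messenger when unfolded proteins collect in the endoplasmic reticulum. Tunicamycin causes that state by blocking protein N-glycosylation. No hg19 annotation was used, so regions are named by position and none is assigned to a gene.

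Each segment was richer in peaks than the rest of its chromosome, most of all 10q. Segment 8q, 80.3 Mb long, carried 20.4 and 21.6 peaks per Mb after tunicamycin and 19.4 in each DMSO library, against 15.8, 17.2, 15.6 and 15.4 in the rest of chromosome 8 in the same order of libraries. Segment 10q, 38.3 Mb long, carried 30.5 and 32.6 after tunicamycin and 28.7 and 29.0 after DMSO. The rest of chromosome 10 carried 18.5, 19.7, 17.6 and 18.2. Segment 17q, 40.2 Mb long, was the densest, with 44.7 and 48.1 peaks per Mb after tunicamycin and 44.0 and 43.4 after DMSO, against 32.9, 35.0, 31.6 and 31.6 in the rest of chromosome 17. The ratio of segment to rest was 1.26 ± 0.0197 for 8q, 1.63 ± 0.0256 for 10q and 1.37 ± 0.0143 for 17q (SD, n = 4 libraries). It was above 1 in 4 of 4 libraries for every segment, and a two-sided exact sign-flip test over libraries gave p = 0.125, the smallest value 4 libraries allow.

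The excess was smaller once empty stretches were left out. The centromeres of the 3 chromosomes lie outside the segments. Counted per 1 Mb window that held at least 1 region the ratios were 1.10 for 8q, 1.40 for 10q and 1.28 for 17q. Set against all autosomes outside the segments, the density ratio was 1.04 for 8q, 1.55 for 10q and 2.31 for 17q, so that 8q was hardly denser than the average autosome while 17q stood 2.31-fold above it. The same segment also held the longest stretch without a region on chromosome 8, 5311803 bp at chr8:112248781-117560583. The members were short, with a median span of 170 bp in 8q, 176 bp in 10q and 177 bp in 17q, and the widths of their peaks differed little from those in the rest of the chromosome. The ratio of median widths was 1.06 ± 0.0126 in 10q, above 1 in 4 of 4 libraries, and 0.988 ± 0.00747 in 8q, below 1 in 4 of 4 (SD, n = 4; exact sign-flip p = 0.125 for both). In 17q it was 0.999 ± 0.0122 (SD, n = 4; exact sign-flip p = 1).

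The summits of the segments were stronger by about the same factor on the 3 chromosomes. The measure is the summit pileup, the height in reads of the stack at the summit, which was recovered from the authors' fold and p-value. In 8q the median pileup was 17 and 18 after tunicamycin and 17 and 17 after DMSO, against 14, 15, 14 and 14 in the rest of chromosome 8. In 10q it was 18 and 19 after tunicamycin and 18 and 18 after DMSO, against 14, 15, 14 and 14. In 17q it was 20 and 22 after tunicamycin and 20 and 21 after DMSO, against 16, 18, 16 and 17. Every segment value thus exceeded the value of its own rest by at least 3 reads. The ratios were 1.21 ± 0.00714 for 8q, 1.28 ± 0.00952 for 10q and 1.24 ± 0.0134 for 17q (SD, n = 4), again above 1 in 4 of 4 libraries with an exact sign-flip p of 0.125. Over the members listed in all 4 libraries, the ratios were 1.22 ± 0.0167, 1.24 ± 0.0114 and 1.27 ± 0.0325 (SD, n = 4).

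The excess was larger among strong peaks than among weak ones. At the 25th percentile of pileup the segment exceeded the rest 1.11-fold in 8q, 1.18-fold in 10q and 1.19-fold in 17q. At the 90th percentile the ratios were 1.32 ± 0.0444, 1.40 ± 0.0119 and 1.31 ± 0.0337 (SD, n = 4). Peaks below the calling threshold are not listed, and the part of this limit in the lower ratios was not tested. The tenth of each list with the best q-values took 14.8% and 14.7% of the 8q peaks after tunicamycin and 14.3% and 13.3% after DMSO, and between 7.37% and 8.44% of the peaks in the rest of chromosome 8. For 17q the share was 18.6% to 20.3%, against 9.45% to 10.9% in the rest of chromosome 17, and for 10q it was 15.0% to 16.7%, against 7.60% to 7.99%.

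The read density around the peaks was higher in the segments too. This local background, recovered with the pileup, is the number of reads that the caller expected at the summit from its surroundings, and it cannot fall below a genome-wide level of 0.140 to 0.147 reads. In 8q its median was 0.476 and 0.500 reads after tunicamycin and 0.508 and 0.498 after DMSO, against 0.410, 0.427, 0.430 and 0.427 in the rest of chromosome 8. In 10q it was 0.554 and 0.579 after tunicamycin and 0.564 and 0.572 after DMSO, against 0.394, 0.419, 0.397 and 0.419. In 17q it was 0.765 and 0.806 after tunicamycin and 0.779 and 0.827 after DMSO, against 0.589, 0.634, 0.583 and 0.609. The ratios were 1.17 ± 0.00913 for 8q, 1.39 ± 0.0233 for 10q and 1.32 ± 0.0382 for 17q (SD, n = 4; exact sign-flip p = 0.125 for each). As pileup and background were both higher, the authors' fold, which divides one by the other after adding 1 to each, differed less, with ratios of 1.05 ± 0.0113, 1.11 ± 0.0119 and 1.10 ± 0.0278 (SD, n = 4). Crowded peaks add reads to each other's surroundings, so the background also moves with the density of peaks, and the part of density in it was not tested.

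**Figure D1:**
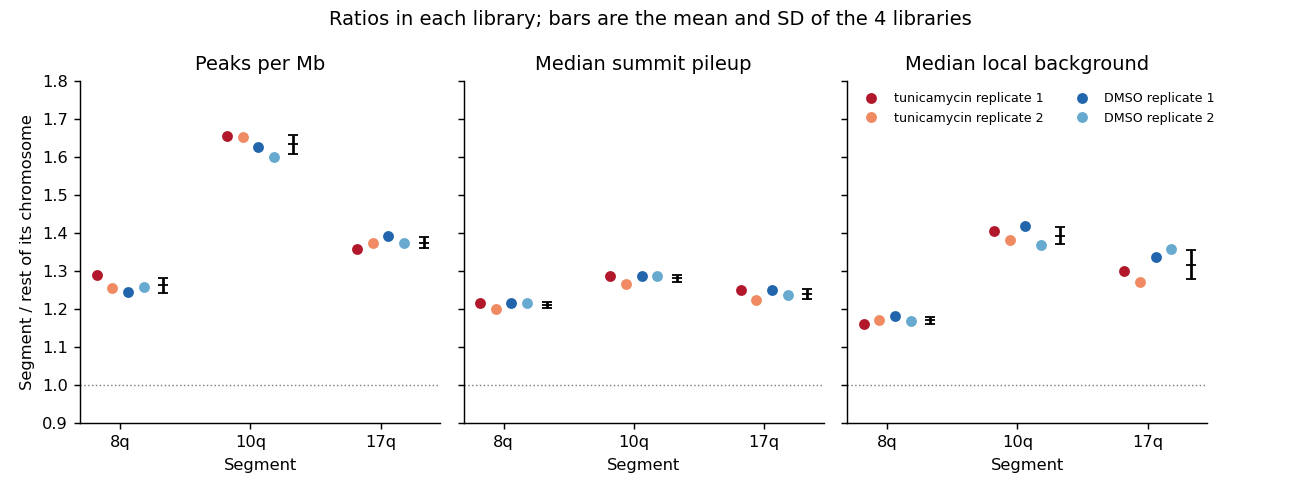
Ratio of each segment to the rest of its own chromosome (vertical axis, no unit) for peaks per Mb, median summit pileup and median local background, with 1 point per library and the mean and SD of the 4 libraries in black. Every point lies above the dotted line at 1, and the 4 libraries lie close together, from 1.20 to 1.29 for pileup over the 3 segments.

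With 2 libraries a group, treatment differences in these ratios were small. The density ratio averaged 1.27 after tunicamycin and 1.25 after DMSO in 8q, 1.65 and 1.61 in 10q, and 1.37 and 1.38 in 17q, with two-sided exact permutation p-values of 0.667, 0.333 and 0.667, of which 0.333 is the smallest that 2 libraries against 2 allow. In 10q the tunicamycin ratios, both 1.65, lay above the DMSO ratios of 1.63 and 1.60. The ratio of local background in 17q was 1.30 and 1.27 after tunicamycin, below the 1.34 and 1.36 after DMSO (exact permutation p = 0.333). The pileup ratio averaged 1.21 in both groups in 8q, 1.28 and 1.29 in 10q, and 1.24 in both groups in 17q, with an exact permutation p of 1 for each. The share of the peak list that lay in the segments was 7.88% and 7.87% after tunicamycin and 7.81% in each DMSO list, a difference of 0.0625 percentage points (exact permutation p = 0.333, n = 2 each). In 10q the shares were 2.001% and 1.999% after tunicamycin and 1.942% and 1.968% after DMSO, so the groups did not overlap. The 8q shares did not overlap either, at 2.81% and 2.78% after tunicamycin and 2.75% and 2.76% after DMSO. The 17q shares, 3.07% and 3.09% against 3.12% and 3.08%, did overlap.

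Among 26 units, counting each segment, the rest of its chromosome and every other chromosome, the segments had the 3 highest summit strengths over common regions, though not over all peaks. For the first order the median pileup of the regions common to all 4 libraries was divided by the median of the library, and the mean was 1.69 ± 0.0897 for 17q, 1.46 ± 0.0769 for 10q and 1.44 ± 0.05 for 8q (SD, n = 4). Chromosome 16 followed at 1.43 ± 0.05 and chromosome 19 at 1.41 ± 0.0687. The gaps of 10q and 8q to these chromosomes were within the SD, while 17q stood apart from all the others by more than the SD. Over all listed peaks, with the same divisor, 17q (1.36 ± 0.0329) and 10q (1.20 ± 0.00625) again came first, but chromosome 19 (1.16 ± 0.0353) preceded 8q, which tied with chromosome 16 at 1.13 ± 0.00417 (SD, n = 4). In the first order, over common regions, the rest of chromosome 17 came to 1.33 ± 0.0448. The rests of chromosomes 8 and 10 both came to 1.18 ± 0.0567, in the lower part of that order. Chromosome X, present as a single copy, was last in it at 0.835 ± 0.0410. Over all listed peaks the rest of chromosome 17 came to 1.10, the rests of chromosomes 8 and 10 to 0.934 each and X to 0.672. Against all the other autosomes, the common regions of 17q had a pileup ratio of 1.35 ± 0.0357, those of 10q 1.17 ± 0.0140, those of 8q 1.16 ± 0.0112 and those of X 0.671 ± 0.00877 (SD, n = 4). The rests of chromosomes 8 and 10 came to 0.947 each and the rest of chromosome 17 to 1.07. The local background, set against the other autosomes in the same way over all peaks, was 1.66 ± 0.0369 for 17q, 1.19 ± 0.00493 for 10q and 1.04 ± 0.0266 for 8q, and 0.534 ± 0.0123 for X (SD, n = 4). Segment 8q thus differed little from the average autosome in peak density and background, and more in the height of its summits.

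**Figure D2:**
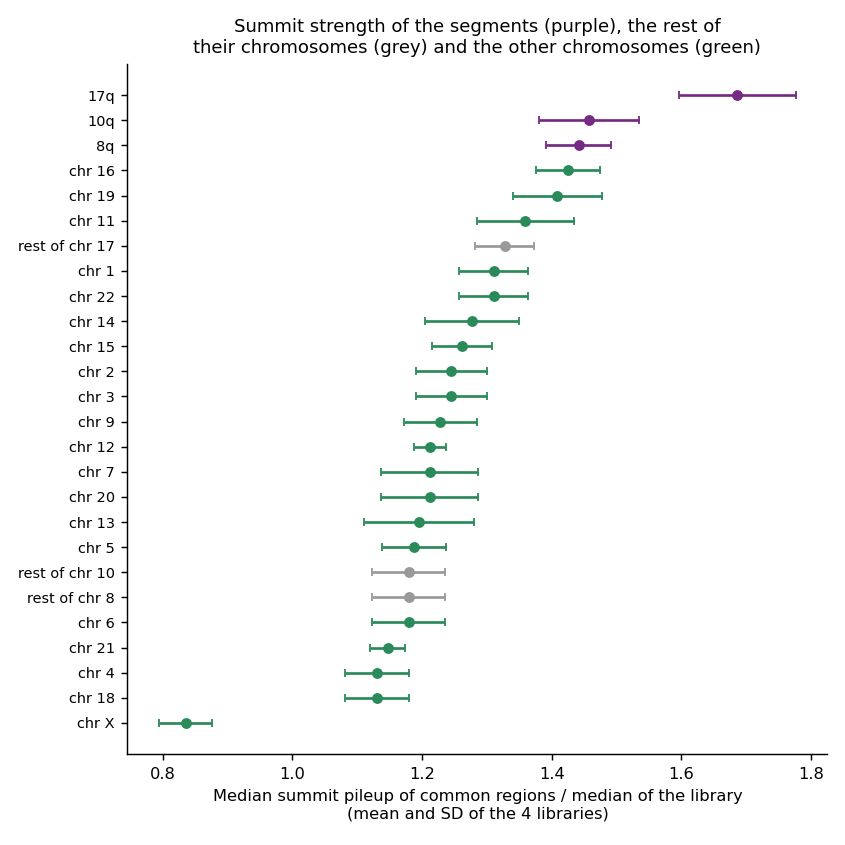
Median summit pileup of the regions listed in all 4 libraries, divided by the median pileup of the library (horizontal axis, no unit), as mean and SD of the 4 libraries for each segment, the rest of its chromosome and every other chromosome. In this measure, which leaves out regions not listed in every library, the segments take the first 3 places from 1.69 to 1.44, the rests of chromosomes 8 and 10 lie at 1.18, and chromosome X is last at 0.835.

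The stronger summits were not spread evenly along the segments, and some windows lay within or below the range of the rest. In windows of 5 Mb with at least 20 common regions, 9 of the 15 windows of 8q had a pileup above every one of the 11 windows of the rest of chromosome 8, whose range was 1.03 to 1.30 times the library median. In 10q this held for 6 of 7 windows, against a range of 0.975 to 1.29 over 18 windows, and in 17q for 5 of 8 windows, against 1.09 to 1.61 over 8 windows. The windows of 8q ranged from 1.05 to 1.83, those of 10q from 0.828 to 1.75 and those of 17q from 1.43 to 1.82. In 8q the top window began 75 Mb beyond the start and held 62.8 regions per Mb, with a pileup of 1.83 ± 0.117 (SD, n = 4), and the next, from 25 to 30 Mb, held 27.0 regions per Mb and reached 1.74 ± 0.0982. The windows of 8q at 40 to 45 Mb (1.08 ± 0.0952) and 70 to 75 Mb (1.05 ± 0.0638) lay within the range of the rest. Between 45 and 50 Mb only 2 regions were listed and neither was common.

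The end of 10q did not share the stronger summits of its segment. The last window of chromosome 10, from 35 Mb beyond the start to the end at 38.3 Mb, held 83 regions, of which 37 were common. Their pileup was 0.828 ± 0.0483 times the library median (SD, n = 4), below every other window of chromosome 10 with at least 20 common regions. In that window 10.1% of peaks had the genome-wide background, against 0.251% to 9.64% in the other windows of 10q and 3.07% to 20.7% in those of the rest of chromosome 10. The 9.64% belonged to the window from 10 to 15 Mb, whose 11 common regions had a pileup of 1.84 times the library median, so this share did not follow the pileup. The deposited lists give no copy number, so whether the additional copy reaches this window was not tested.

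The starts of the segments were less sharp than the contrast of the whole segments. The 5 Mb after the start had a pileup of 1.40 ± 0.136 in 8q, 1.36 ± 0.0521 in 10q and 1.43 ± 0.0471 in 17q. The 5 Mb before the start had 1.23 ± 0.0644, 1.19 ± 0.0498 and 1.36 ± 0.0753 (SD, n = 4 libraries each). In 17q the difference was no larger than the spread between libraries. Within DMSO replicate 2 the values before and after the start were equal in 8q (1.27) and in 17q (1.40). In 10q the value was higher after the start in every library. At 8q the last region outside, chr8:64331049-64331214, was listed only after tunicamycin, with pileups of 8 and 7. The first region inside, chr8:66280152-66280271, was listed in tunicamycin replicate 2 and DMSO replicate 1, with pileups of 5 and 4. At 10q the first region inside, chr10:97002891-97003038, was common, with pileups of 18 and 16 after tunicamycin and 14 and 21 after DMSO. The last one outside, chr10:96997656-96997767, was listed in tunicamycin replicate 1 alone, with a pileup of 9. At 17q the first region inside, chr17:40915530-40915722, had 34 and 41 after tunicamycin and 30 and 29 after DMSO, and the last outside, chr17:40896951-40897246, had 8 and 18 after tunicamycin and 15 and 11 after DMSO.

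**Figure D3:**
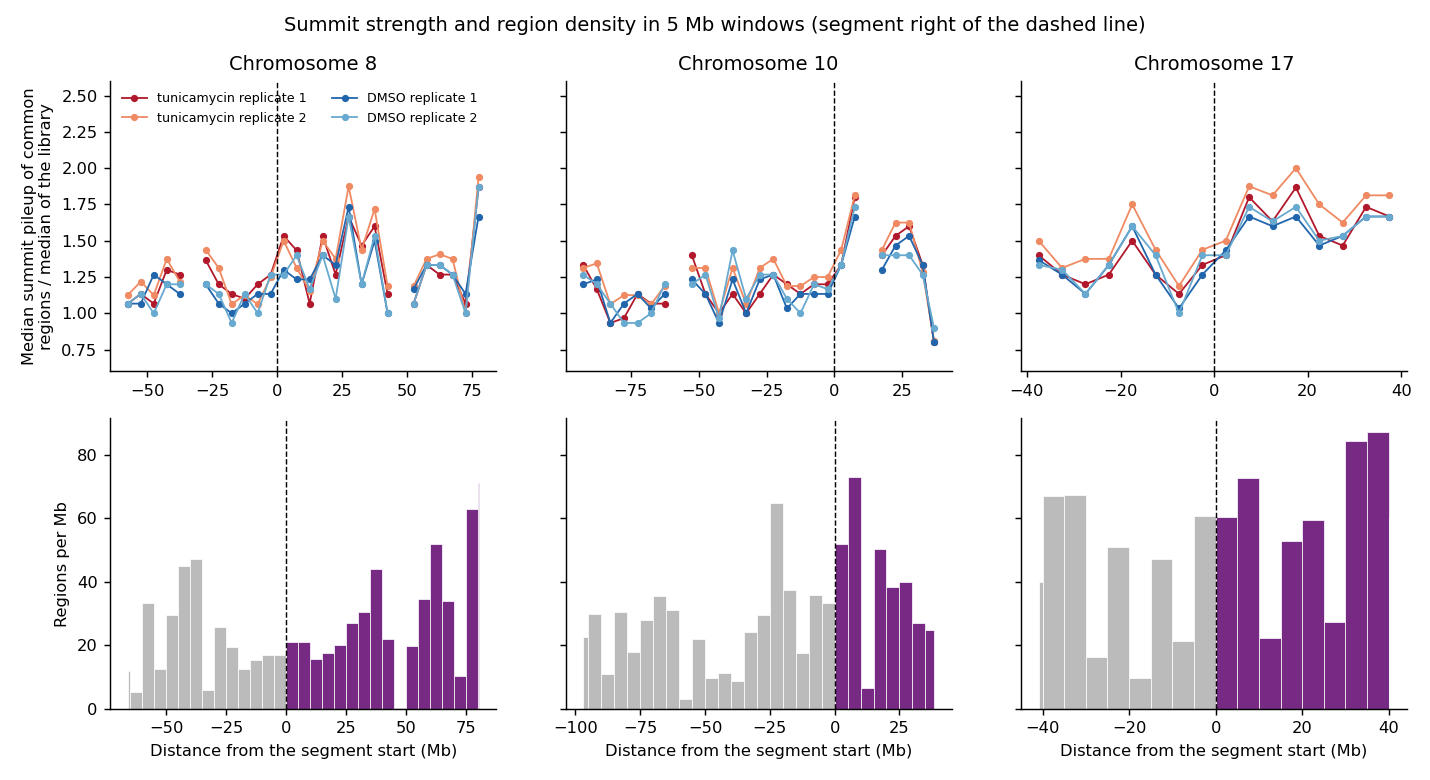
Upper row: median summit pileup of common regions divided by the median of the library, in 5 Mb windows with at least 20 common regions, by library. Lower row: regions per Mb in all windows (the last window of a chromosome end can be shorter), with segments in purple right of the dashed start and the rest in grey; the last window of 10q lies at 0.828 and the window of 8q from 75 Mb at 1.83.

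Dense and sparse neighbourhoods gave different ratios. Common regions were sorted by the number of regions in their 1 Mb window, and segment and rest were compared within each class. In windows of over 40 regions the pileup ratio was 1.30 ± 0.0524 for 8q, 1.22 ± 0.0587 for 10q and 1.21 ± 0.0140 for 17q (SD, n = 4). In windows of 21 to 40 regions it was 1.08 ± 0.0318, 1.29 ± 0.0510 and 1.45 ± 0.106. In windows of 1 to 20 regions it was 0.986 ± 0.0964 for 8q and 0.905 ± 0.106 for 10q, neither of which was above 1, and 1.17 ± 0.0845 for 17q. This class is thin, with 93 members in 8q, 49 in 10q and 25 in 17q. The stronger summits of 8q and 10q were thus seen where open chromatin was dense, and those of 17q in all 3 classes.

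The strongest members had pileups from 87 to 132 reads. They were the 3 common regions per segment that ranked best by q-value on average over the lists, on a percentile scale where 100 is the top of a list, so their high place in every list follows from the choice. In 8q they were chr8:110551710-110552106, with pileups of 108 and 132 after tunicamycin and 122 and 109 after DMSO, chr8:67579382-67579850 (117 and 125 against 107 and 109) and chr8:99838132-99838439 (99 and 98 against 105 and 101). By pileup the second had both tunicamycin values above the DMSO values, the third had both below, and the first overlapped. By rank in the lists the third overlapped too, with 99.986 and 99.930 after tunicamycin against 99.989 and 99.979 after DMSO. Among the 40447 common regions, the groups separated by rank upward in 18.0% and downward in 18.3%, so separation does not single out a member. In 10q the first, chr10:129845657-129845941, had 91 and 116 after tunicamycin and 87 and 98 after DMSO, and the groups overlapped. The others, chr10:106028653-106029051 (94 and 101 against 95 and 93) and chr10:101418904-101419318 (95 and 103 against 100 and 97), overlapped as well. In 17q the top regions were chr17:80416274-80416685 (107 and 117 after tunicamycin against 112 and 129 after DMSO), chr17:79196701-79197022 (100 and 118 against 109 and 116) and chr17:80452142-80452924 (110 and 113 against 109 and 129). All 3 lie in the last 5 Mb window but one of the arm, which held 87.0 regions per Mb. Their pileups overlapped between the groups. By rank in the lists only the third overlapped. The first had 99.978 and 99.988 after tunicamycin against 99.991 and 99.998 after DMSO, and the second 99.969 and 99.984 against 99.986 and 99.993.

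Slightly more of the members than of all regions were common to the 4 libraries. The share was 52.0% in 8q, 56.1% in 10q and 56.5% in 17q, against 50.2%, 49.8% and 55.6% in the rests and 51.3% of all regions. For 10q the Wilson 95% intervals of segment and rest, 53.6 to 58.6% and 47.9 to 51.8%, did not overlap. These intervals treat regions as independent and cover counting error only. Common members had a median pileup of 21 to 24 in 8q, 21 to 25 in 10q and 24 to 29 in 17q, depending on the library. Members listed in a single library made up 21.4% of the members and 22.3% of all regions.

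Gained regions, listed in each tunicamycin library and in no DMSO library, had shares in the segments close to that of all regions. They numbered 87 in 8q (3.98%), 54 in 10q (3.56%) and 80 in 17q (3.42%), together 221 (3.66%), against 3.65% of all 78788 regions. The rests held 4.18%, 3.64% and 3.74%. The differences between segment and rest were -0.192 percentage points (Newcombe 95% interval -1.57 to 1.10) for 8q, -0.0760 (-1.23 to 1.18) for 10q and -0.325 (-1.52 to 0.814) for 17q. The 8q difference changed direction with the setting: at a −log10 q of at least 10 it was 1.96 points (0.309 to 3.51), and against the rest of the long arm -2.53 points (-5.95 to -0.0986). Regions listed in exactly 1 library of each group, which no treatment effect predicts, made up 7.23% of the members over 4 patterns and 8.07% of all regions.

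Gained members were weak as a rule. Their median pileup was 11 and 10 in the tunicamycin libraries in 8q, 10 and 10 in 10q, and 11 and 12.5 in 17q, with median percentile ranks of 19.8 to 25.6. The 3 best in 8q were exceptions. The region chr8:126475815-126475938 had pileups of 45 and 51 and ranks of 97.6 and 97.6, the region chr8:145550311-145550525 had 38 and 53 with ranks of 96.4 and 98.7, and the region chr8:80935936-80936096 had 36 and 34 with ranks of 95.5 and 94.1. Each was absent from both DMSO lists. The second lay 238.5 bp, midpoint to midpoint, from a common region. The first lay 14133 bp and the third 6083 bp from the nearest common region.

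No gained region of 10q or 17q reached such ranks. The best of 10q, chr10:112563706-112563830, had pileups of 21 and 20 and ranks of 77.7 and 73.5. It was followed by chr10:103699053-103699254 (25 and 23) and chr10:97205764-97205940 (20 and 16). The best of 17q, chr17:80020568-80020698, had 23 and 26 with ranks of 64.1 and 67.1. After it came chr17:62051601-62051753 (24 and 22) and chr17:46133105-46133371 (19 and 22).

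Lost regions, the reverse pattern, were rare in 10q. They numbered 43 in 8q (1.97%), 13 in 10q (0.857%) and 43 in 17q (1.84%), against 1.86% of all regions. In the rests the shares were 2.44%, 2.61% and 1.73%. For 10q the Wilson 95% interval was 0.501 to 1.46%, against 2.05 to 3.32% in the rest of chromosome 10, and the difference was -1.76 percentage points (Newcombe 95% interval -2.55 to -0.933). For 8q the difference was -0.467 points (-1.53 to 0.489) and for 17q 0.110 points (-0.757 to 0.922). Regions are not replicates of a treatment, so no test over regions was made. With peaks limited to a −log10 q of at least 5 the 10q difference was -1.38 points (-2.21 to -0.498), and at a −log10 q of at least 10 it was 0.101 points (-0.717 to 1.05). Such a limit also changes which regions count as lost, and the cause of the change was not tested. The tunicamycin lists were longer than the DMSO lists. With lists of equal length the lost share was 1.86% in 10q and 3.21% in the rest of chromosome 10. The difference was then -1.35 points (-2.33 to -0.297). The 6 differences of gained and lost shares were looked at together, and the intervals are not adjusted for their number.

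**Figure D4:**
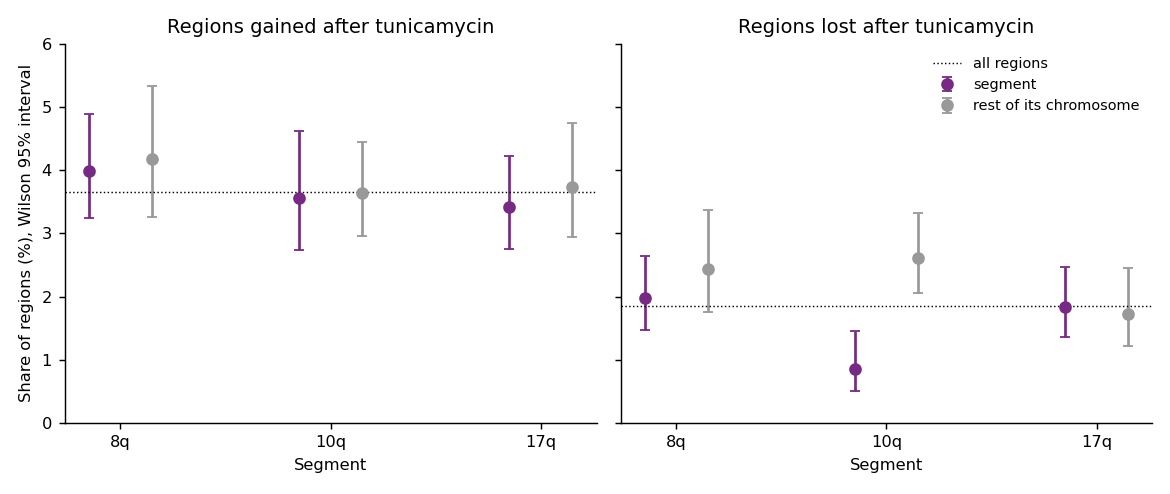
Share of regions (percent) that were gained (left) or lost (right) after tunicamycin in each segment (purple) and in the rest of its chromosome (grey), with Wilson 95% intervals; the dotted line is the share among all regions. Gained shares lie near the line at 3.65%, and the lost share of 10q, at 0.857%, lies below that of the rest of chromosome 10, at 2.61%.

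Lost members were weak too, with a median pileup of 9 in both DMSO libraries in 8q and 10q and of 11 and 12 in 17q. The strongest was chr17:43971719-43971822, with pileups of 32 and 27 after DMSO and ranks of 92.9 and 85.7. It lay 188.5 bp from a common region. The next in 17q were chr17:73844642-73844752 (27 and 30) and chr17:55889442-55889575 (11 and 15). In 8q the strongest were chr8:126291393-126291530 (23 and 24), chr8:131739320-131739469 (20 and 21) and chr8:107542570-107542674 (13 and 14). In 10q they were chr10:99038357-99038518 (17 and 12), chr10:101539916-101540044 (18 and 23) and chr10:122360507-122360640 (9 and 10). The last window of 10q, whose summits were the weakest of the chromosome, held 0 gained and 0 lost regions among 83. For 0 counts an approximate 95% upper limit of the share is 3 in 83, or 3.61%. This lies close to the 3.65% of all regions that were gained and above the 1.86% that were lost. The window is thus not shown to differ from all regions.

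Among common regions, 1 member passed the test for a change of rank after tunicamycin. Ranks of the q-value among all 40447 common regions were turned into normal scores and compared with limma, adjusted by Benjamini-Hochberg over all of them. Of these regions 14 (0.0346%) were called higher and 7 (0.0173%) lower. Of the 3309 common members 1 was called higher and 0 lower. An unadjusted limma p below 0.05 was found for 297 members (8.98%), 177 higher and 120 lower, against 2965 (7.33%) of all common regions. Of those 2965 regions, 1506 were higher and 1459 lower. With the same prior spread for all regions the counts were 236 of 3309 members and 2821 of 40447 common regions. With ranks of the fold they were 247 of 3309 and 2829 of 40447. In both settings the share of the members was only slightly above that of all common regions. Whether the excess exceeds the spread between cultures was not tested. The region called was chr8:141555194-141555343. Its pileup was 18 and 27 after tunicamycin, against 7 and 8 after DMSO, and its percentile rank among common regions was 48.1 and 69.4 after tunicamycin, against 1.42 and 3.57 after DMSO. Its local background was also higher, at 0.487 and 0.602 reads after tunicamycin, against 0.478 and 0.466 after DMSO. The score rose by 2.23 ± 0.476 (SE; limma adjusted p = 0.0299). The call was lost without tunicamycin replicate 1 (adjusted p = 0.239), without tunicamycin replicate 2 (0.449) and without DMSO replicate 1 (0.0717), and with the same prior spread for all regions (0.406) or ranks of the fold (0.197).

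The regions with the smallest p in the other segments, chosen after their values were seen, did not pass. In 10q chr10:114449132-114449295 had pileups of 4 and 5 after tunicamycin, against 12 and 13 after DMSO, and its score changed by -2.38 ± 0.552 (SE). The limma adjusted p was 0.0737 (0.0340 with the replicate number as a block). In 17q chr17:44859684-44859849, a strong region, had 60 and 68 after tunicamycin, against 37 and 36 after DMSO, and its score changed by 1.04 ± 0.249 (SE), at a limma adjusted p of 0.104. Neither pair of groups overlapped, but choosing by the smallest p favours such regions, so this adds nothing to the adjusted p-values. Separation by rank was also frequent, upward in 18.0% and downward in 18.3% of the common regions.

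As a group the common members sat close to the rest of the genome. Their median score change was 0.0209, against 0.00044 over all common regions, with 0.0435 in 8q, 0.0204 in 10q and 0.00278 in 17q. The tunicamycin ranks were both higher than the DMSO ranks in 691 members (20.9%), against 18.0% of all common regions, and below in 570 (17.2%), against 18.3%. The upward share was 20.9% in 8q, 23.3% in 10q and 19.4% in 17q, and 17.04%, 16.7% and 16.6% in the rests of the 3 chromosomes. The downward shares were 16.7%, 18.3% and 17.01%, against 19.7%, 17.3% and 19.1% in the rests. Whether the upward excess of a few percentage points exceeds the spread between cultures was not tested.

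**Figure D5:**
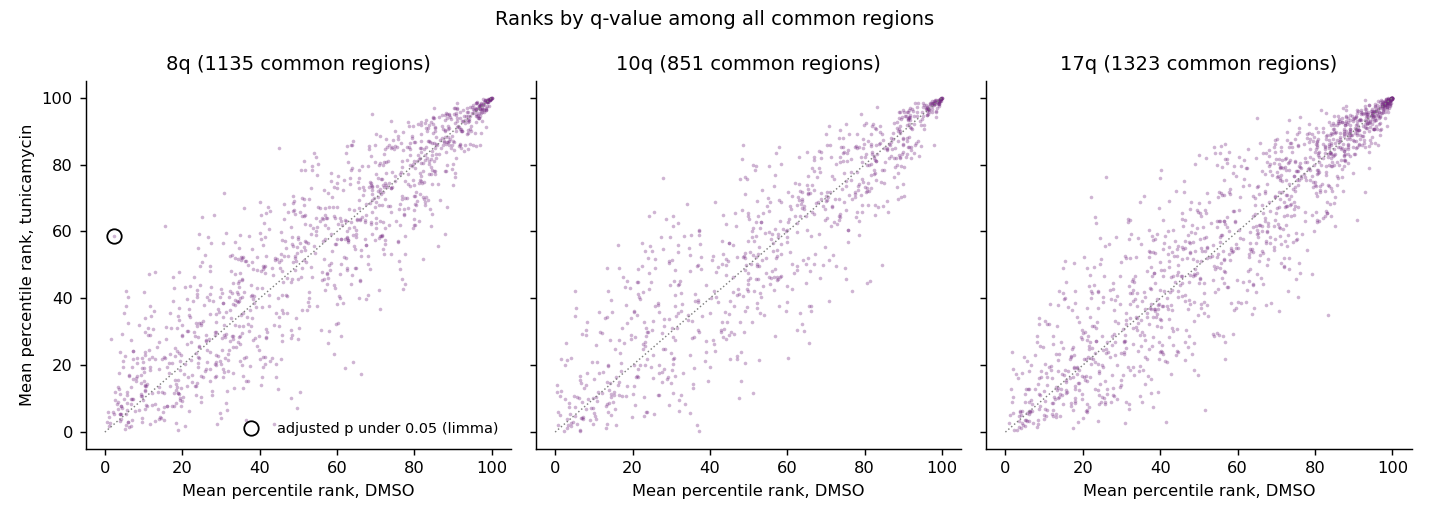
Mean percentile rank of the q-value among all 40447 common regions, tunicamycin (vertical axis) against DMSO (horizontal axis), for each common member by segment; the dotted line marks equal ranks. Points lie along the line, and the circled point in 8q is the member that limma called, with mean ranks of 58.8 after tunicamycin and 2.49 after DMSO.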

How the data were processed

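The deposited data were 1 MACS2 peak list per library on hg19. Per the submitters' processing notes, the tools were MACS2 2.2.7.1, Picard 2.18.23, Bowtie2 2.3.5.1, deepTools, SAMtools and Trim Galore. Their settings are not given here. The authors' score equalled their −log10 q-value times 10, cut to a whole number, in at least 99.95% of peaks. The authors' fold is the ratio of summit pileup to local background, each plus 1, and their −log10 p-value gives the Poisson probability of a higher pileup. Solving both for a whole-number pileup and its background met the −log10 p-value to 0.001 or better in 100% of peaks. What the caller piled up is not known, and it is called reads here. Read totals were not used here. The lists held 58467 and 62526 peaks after tunicamycin and 56581 and 56566 after DMSO, the median pileup was 15 or 16, and 1.14% to 1.15% of the peak numbers in each list were not present.

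Peaks sharing 1 bp were merged (Python 3.11.15, pandas 2.3.3, numpy 2.4.6, scipy 1.17.1). The end of a chromosome was taken as the end of its last listed peak. Libraries were grouped by their titles. Ratios over libraries were tested by exact sign-flip tests of the log2 ratio, treatment by exact permutation tests, and ranks by limma 3.58.1 under R 4.3.3, with its trend option for the prior spread. Shares carry Wilson or Newcombe 95% intervals, which cover counting error only. The named regions were the 3 best common, gained and lost regions per segment by mean rank, every member called by limma, and the regions beside each start. The members and lists were chosen with earlier results of these data known. Merging, recovery of the pileup and the tests were tested on simulated data. Alternatives were stricter q-values, the rest of the long arm or all autosomes for comparison, starts moved by 2 Mb, lists of equal length, merging of peaks up to 250 bp apart, other measures of strength, the replicate block and each library left out. The geometric mean, common regions alone and the split by density were added after seeing the data. The stress genes that were to be placed in the segments were not analysed here, for want of an hg19 annotation.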

Additional observations from a re-analysis of the deposited data

How the results depend on the processing

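Ratios of density, pileup and background stayed above 1 for every segment under every alternative run except pileup in 1 Mb windows of 1 to 20 regions, where it was 0.986 for 8q and 0.905 for 10q. The cause was not tested. Where a test was made, the exact p was 0.125, or 0.25 with 1 library left out, the smallest these numbers of libraries allow, so it says nothing of stability. No test was made within classes of density. The 17q density ratio was 2.31 against all autosomes, over 1.5 times its value against the rest of chromosome 17. In chromosome 8 the widest empty stretch lay inside the segment, so the widest outside it marked the long arm. The gained difference of 8q was 1.96 points (0.309 to 3.51) at a −log10 q of at least 10 and -2.53 points (-5.95 to -0.0986) against the rest of the long arm. The lost difference of 10q was 0.101 points at a −log10 q of at least 10 and -3.76 to -1.70 points with 1 library left out, where a pattern needs 1 library fewer in a group (-3.76 without DMSO replicate 1, -2.67 without tunicamycin replicate 2). The share of 17q in the lists differed by 0.00442 points with lists of equal length, against -0.0221.

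Members called by limma numbered 2 with the replicate block (1 higher, 1 lower), 0 with the same prior spread for all regions, 0 with ranks of the fold, 0 among regions with a −log10 q of at least 5, and 0 to 4 with 1 library left out (4 without DMSO replicate 2), where the lone library is assumed to vary like the others. All regions called numbered 35 with the block (19 higher, 16 lower), 0, 0 and 18 in those settings, and 4 to 27 with 1 library left out. The region called in the main fit, chr8:141555194-141555343, did not meet the −log10 q limit of 5, so it was not tested in that setting. Deviations of same-numbered libraries had a correlation of 0.0111. With 2 libraries a group this is a single comparison, so it cannot show whether the cultures were paired. Pileups of 15 or 16 at the median summit limit what can be told about weak peaks.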
